A study of Mus musculus with 6 samples.

Results

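The genes of the cornified envelope were followed in mouse skin wounds on day 3 after injury, on 3 arrays from wild-type (WT) mice and 3 from FoxO1 +/- mice. The genes were chosen by name: every Sprr or Lce symbol followed by a digit, and 17 named genes for envelope precursors, cross-linking and processing enzymes and other late differentiation proteins. RefSeq lists 55 such symbols. Probes were mapped to 46 of them, through 54 of the 55681 non-control probes on the array, and 45 of these genes were among the 16408 genes tested. By subfamily, the tested genes were 13 Sprr, 12 Lce1, 4 Lce3, 6 precursors, 5 enzymes and 5 others. Sprr3 had 1 probe, which did not rise well above background anywhere, and it was not tested. Flg, Sprr2a1, Sprr2a3, Sprr2c-ps, Lce1j, Lce1k, Lce3d, Lce3e and Lce6a had no mapped probe and were not analysed here. All 53 probes of the tested genes were well above background on all 6 arrays.

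All mice were male and of strain C57/BL6. The WT group carried no stated allele, and the FoxO1 +/- group was heterozygous for the gene of the transcription factor FoxO1; how the allele was made and the age of the mice were not given in the sources used here. In every mouse, 4 wounds through the full thickness of the back skin were punched at 4 mm and collected with a 6 mm punch, so the tissue also held skin around the wound. Each RNA was hybridised alone to 1 Cy3 array, all on 1 slide, and the titles number the samples 1 to 3 in each genotype. Whether these numbers are animals is not stated clearly, and each array was taken as 1 mouse. The text does not say whether wounds were pooled, so a p-value here reflects array-to-array spread, which may be technical in part. Levels are log2 signals relative to the array's 75th percentile, and a difference is the mean of the 3 FoxO1 +/- arrays minus the mean of the 3 WT arrays on that scale.

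Keratinocytes that leave the basal layer build the cornified envelope beneath the plasma membrane and die as flat, cross-linked corneocytes. Involucrin (Ivl) and envoplakin form the early scaffold, loricrin (Lor) and the small proline-rich proteins (Sprr) are then joined to it by transglutaminases, and the late cornified envelope proteins (Lce) are added near the end. Most of these genes lie together in the epidermal differentiation complex on mouse chromosome 3. In wounded skin, Sprr genes and the Lce3 group are known as stress or repair members of the complex, whereas Lce1 genes and Lor belong to normal terminal differentiation.

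The labels were checked on Foxo1 first. Its first probe read 2.04, 1.81 and 2.32 in WT and 1.55, 1.69 and 1.49 in FoxO1 +/-, a difference of -0.48 (SE 0.15). The second read 1.31, 1.04 and 1.51 in WT and 0.38, 0.50 and 0.30 in FoxO1 +/-, a difference of -0.89 (SE 0.14). Both probes were lower on every FoxO1 +/- array, though neither passed adjustment over all probes (limma, adjusted p = 0.548 and 0.187). Whether either probe lies in the altered part of the gene was not known. The arrays were alike in depth of signal except for FoxO1 +/- replicate 3, where 64.3% of spots were well above background against 70.1% to 71.9% on the other 5, and the 75th percentile signal was 899.9 against 1094 to 1302. The WT arrays shared row 1 of the slide with FoxO1 +/- replicate 1, and row 2 carried FoxO1 +/- replicates 2 and 3 without any WT array, so row and genotype cannot be told apart for those replicates.

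Across the whole group, most envelope genes had a higher mean in FoxO1 +/- wounds, but no gene passed the test across all genes. Of the 45 genes, 36 had the higher mean in FoxO1 +/- and 9 in WT, with a median difference of 0.25, whereas 53.9% of all genes were higher and their median difference was 0.01. None of the 45 passed an adjusted p of 0.05 (limma with Benjamini-Hochberg adjustment, smallest adjusted p = 0.642), a threshold passed by 1 of all 16408 genes, or 0.00609%. Before adjustment, Hrnr, Ivl and Sprr2g were higher at p under 0.05, against 3.48% of all genes, and Sprr2b, Sprr4, Tgm3 and Tgm5 were lower, against 2.81% of all genes. Both shares lay above those of all genes, on 3 and 4 genes. The genotypes did not overlap for 4 of the 45 (Sprr2g, Lce1m, Hrnr and Tgm3), a smaller share than the 11.5% of all genes. Under quantile normalization the split was 31 higher and 14 lower.

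**Figure D1:**
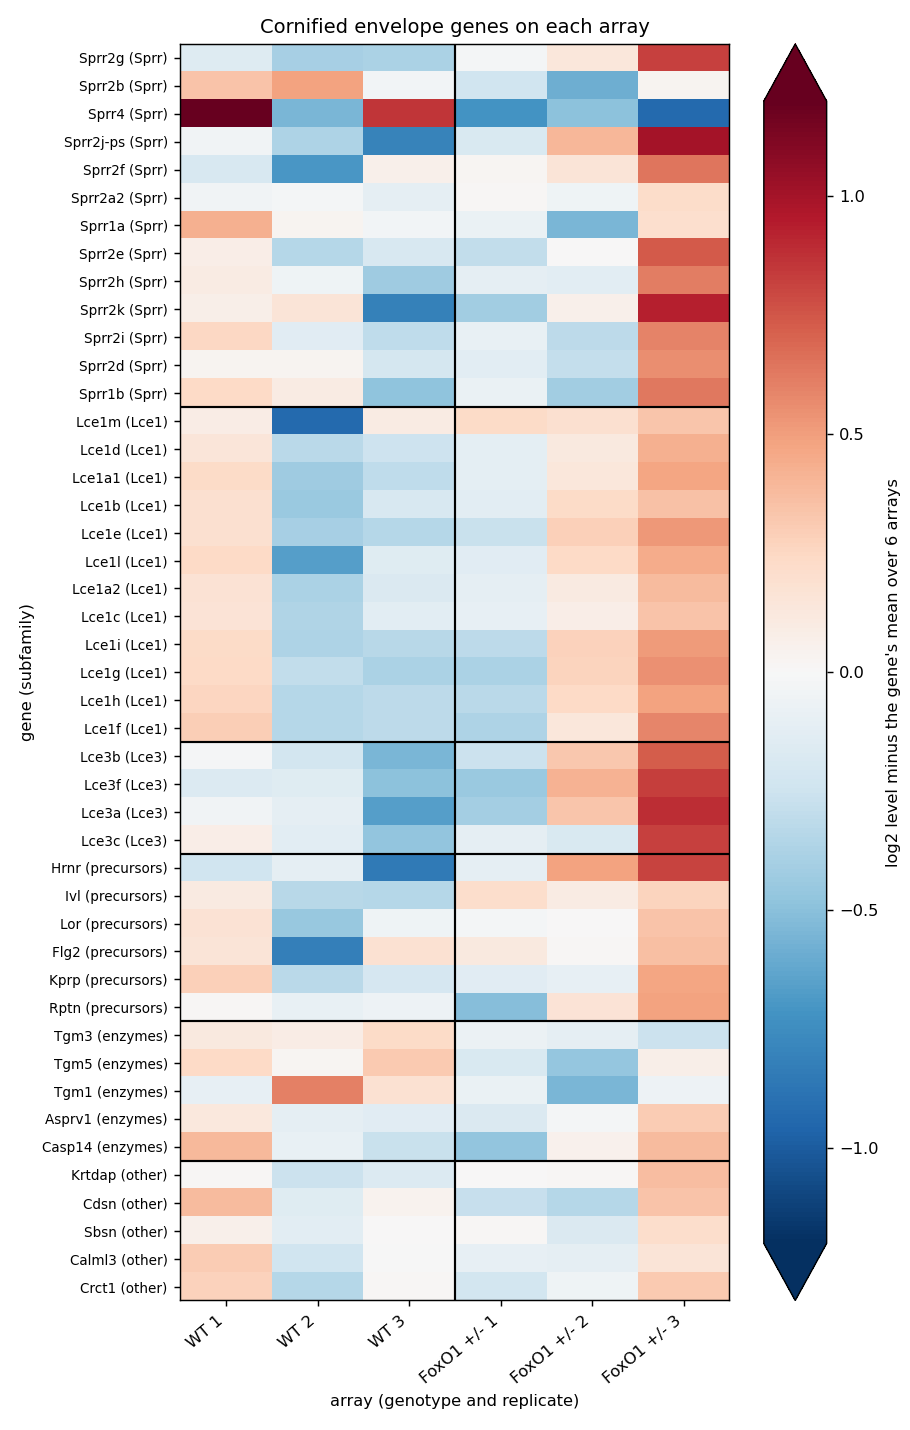
Each row is 1 of the 45 tested genes, grouped by subfamily, and each column is 1 array (3 WT, 3 FoxO1 +/-); colour gives the log2 level minus the gene's mean over the 6 arrays, and values past 1.2 either way take the end colour. The FoxO1 +/- replicate 3 column is the highest for 36 genes, including all 16 Lce genes, while the transglutaminases Tgm3, Tgm5 and Tgm1 have lower FoxO1 +/- means.

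One array set much of this direction. FoxO1 +/- replicate 3 was the highest of the 6 arrays for 36 of the 45 genes (80.0%), against 20.9% of all genes. These 36 comprised 12 of 12 Lce1, 4 of 4 Lce3, 6 of 6 precursors, 10 of 13 Sprr, 3 of 5 others and 1 of 5 enzymes. At the other end, WT replicate 2 was lowest for 19 genes, 10 of them Lce1, and WT replicate 3 for 12 genes, among them all 4 Lce3. The count on FoxO1 +/- replicate 3 was 35 with the median as the scale, 36 with normexp background correction and 28 (62.2%, against 15.5% of all genes) after quantile normalization. Without FoxO1 +/- replicate 3, 28 genes were higher and 17 lower, and the median difference was 0.04. Within slide row 1, where FoxO1 +/- replicate 1 was the lone heterozygote, 20 were higher and 25 lower, with a median of -0.05.

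The subfamilies differed in how they stood on each array. For each gene the level on an array was taken relative to its own 6-array mean, and the median of these deviations was formed over a subfamily. The Lce3 medians were -0.03, -0.14 and -0.52 in WT and -0.33, 0.32 and 0.83 in FoxO1 +/-. Those of Lce1 were 0.21, -0.37 and -0.27 in WT and -0.13, 0.21 and 0.46 in FoxO1 +/-. For both Lce groups, FoxO1 +/- replicate 1 lay with the low WT arrays, replicates 2 and 3 lay above 0, and for Lce1 WT replicate 1 was as high as FoxO1 +/- replicate 2. Sprr medians were 0.08, -0.05 and -0.22 in WT and -0.11, -0.13 and 0.61 in FoxO1 +/-, so only replicate 3 stood out. The precursors gave 0.13, -0.33 and -0.13 against -0.06, 0.05 and 0.42. The enzymes gave 0.13, 0.02 and 0.19 against -0.17, -0.11 and 0.07, so FoxO1 +/- replicates 1 and 2 lay below every WT array.

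**Figure D2:**
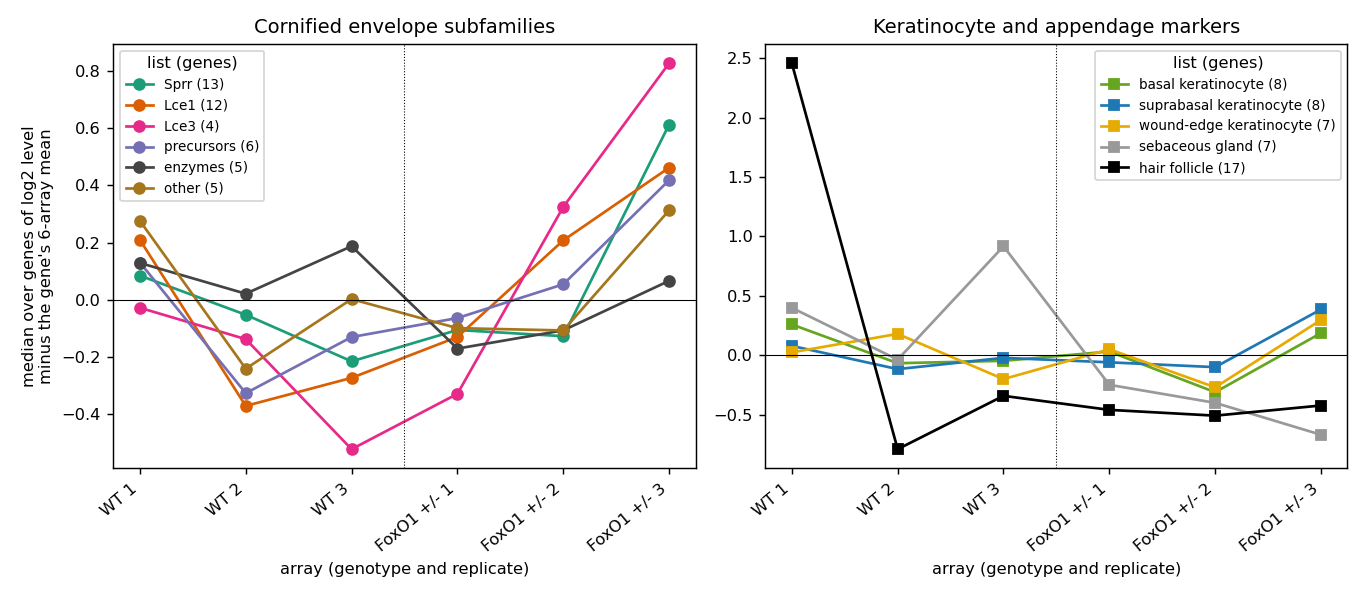
Median over the genes of a list of the log2 level minus each gene's 6-array mean, for each array; the left panel shows the 6 envelope subfamilies, the right panel keratinocyte and skin appendage markers, with gene numbers in the keys and lines that only join the points of a list. Lce3 reaches 0.83 and Sprr 0.61 on FoxO1 +/- replicate 3, where the suprabasal markers are at 0.39, and hair follicle markers stand at 2.46 on WT replicate 1.

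Markers of the cell types in the sample were read on the same scale. The 8 suprabasal keratinocyte markers had medians of 0.08, -0.11 and -0.02 in WT and -0.06, -0.10 and 0.39 in FoxO1 +/-, so they too were highest on FoxO1 +/- replicate 3. The wound-edge keratinocyte markers were also highest there, at 0.30, against -0.27 to 0.18 on the other arrays. Basal keratinocyte markers reached 0.19 on that array, with the highest median, 0.26, on WT replicate 1. Hair follicle markers stood at 2.46 on WT replicate 1 and between -0.79 and -0.34 on the other 5 arrays, and sebaceous gland markers were at 0.40, -0.04 and 0.92 in WT and -0.25, -0.40 and -0.67 in FoxO1 +/-. Adipocyte markers, with medians of 0.07, -0.93 and -0.24 in WT and 0.16, 0.36 and 0.67 in FoxO1 +/-, were lowest and highest on the same arrays as Lce1. So were endothelial markers, at -0.22 on WT replicate 2 and 0.17 on FoxO1 +/- replicate 3. On FoxO1 +/- replicate 3 neutrophil markers stood at 0.30, fibroblast markers at 0.12, macrophage and monocyte markers at 0.07 and skeletal muscle markers at -0.83, their lowest median. The part of these cell types in the envelope gene differences was not tested, and in bulk tissue fewer cells of a type and less RNA per cell cannot be told apart.

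Among single markers, the basal keratins Krt5 and Krt14 differed by -0.27 (SE 0.18) and -0.08 (SE 0.17), and the suprabasal keratins Krt1 and Krt10 by -0.14 (SE 0.19) and 0.24 (SE 0.21). None of the 4 was called (limma, smallest adjusted p = 0.897), and the 2 suprabasal keratins differed in sign. Krt78, a late suprabasal keratin, read 1.86, 1.73 and 1.68 in WT and 1.93, 2.26 and 2.62 in FoxO1 +/-, without overlap, a difference of 0.51 (SE 0.18, unadjusted p = 0.0278, adjusted p = 0.74 by limma). Krt17, a keratin of wound edge and follicle, differed by -0.61 (SE 0.27). The 7 wound-edge markers as a list split 4 higher and 3 lower, with a median of 0.004.

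The promoters were set side by side to show what genes of one subfamily share in sequence. Of the 45 tested genes, 39 had a promoter in the RefSeq table of build GRCm38.p6, from 250 bases before the annotated start to 50 after it; Sprr2g, Sprr2j-ps, Lce1f, Kprp, Calml3 and Crct1 had none. The windows were searched on both strands for the AP-1 motif TGANTCA, the forkhead motif TGTTTAC, the Klf-type motif GGGTGNG and the Ets-type motif GGAAGT, and on the sense strand for TATAAA between 40 and 20 bases before the start. For 10 genes, all of which carry a marked motif, the 200 bases before the start are given, 5′ to 3′ in the direction of transcription. Capitals stand for AP-1 and forkhead motifs and for TATAAA or ATAAAA in that range, and overlapping motifs merge into a longer run of capitals. Genes without a marked motif in these bases, among them Sprr4, Tgm5 and Tgm1, are not printed.
Sprr1a (chr3:92485882-92486081, minus strand): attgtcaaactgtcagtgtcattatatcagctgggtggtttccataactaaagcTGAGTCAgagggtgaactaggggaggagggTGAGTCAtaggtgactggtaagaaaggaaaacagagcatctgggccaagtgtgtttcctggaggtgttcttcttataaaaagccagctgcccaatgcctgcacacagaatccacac
Sprr2b (chr3:92316505-92316704, plus strand): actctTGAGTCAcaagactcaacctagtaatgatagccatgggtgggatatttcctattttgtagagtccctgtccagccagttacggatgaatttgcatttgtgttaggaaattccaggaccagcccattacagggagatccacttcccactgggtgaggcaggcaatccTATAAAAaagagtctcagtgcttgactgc
Sprr2f (chr3:92364987-92365186, plus strand): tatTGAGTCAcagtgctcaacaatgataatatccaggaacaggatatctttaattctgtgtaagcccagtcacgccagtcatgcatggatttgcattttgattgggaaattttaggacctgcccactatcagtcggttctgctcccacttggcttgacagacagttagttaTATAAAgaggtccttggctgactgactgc
Ivl (chr3:92573736-92573935, minus strand): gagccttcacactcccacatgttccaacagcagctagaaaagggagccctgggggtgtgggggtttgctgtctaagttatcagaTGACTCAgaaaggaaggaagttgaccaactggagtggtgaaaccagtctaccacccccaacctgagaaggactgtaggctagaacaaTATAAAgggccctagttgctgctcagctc
Lor (chr3:92083143-92083342, minus strand): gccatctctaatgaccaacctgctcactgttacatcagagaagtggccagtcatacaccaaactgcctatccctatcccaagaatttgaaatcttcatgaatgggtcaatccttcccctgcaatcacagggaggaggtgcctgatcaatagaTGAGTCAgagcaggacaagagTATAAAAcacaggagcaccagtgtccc
Hrnr (chr3:93319549-93319748, plus strand): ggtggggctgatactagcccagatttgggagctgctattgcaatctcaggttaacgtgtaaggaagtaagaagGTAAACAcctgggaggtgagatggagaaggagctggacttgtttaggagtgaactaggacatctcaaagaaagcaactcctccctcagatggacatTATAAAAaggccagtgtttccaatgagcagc
Lce1a2 (chr3:92670316-92670515, minus strand): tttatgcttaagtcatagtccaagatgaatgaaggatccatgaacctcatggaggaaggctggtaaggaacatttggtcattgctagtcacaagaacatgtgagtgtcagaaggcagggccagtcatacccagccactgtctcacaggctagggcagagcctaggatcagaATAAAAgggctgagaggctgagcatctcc
Lce1m (chr3:93019062-93019261, minus strand): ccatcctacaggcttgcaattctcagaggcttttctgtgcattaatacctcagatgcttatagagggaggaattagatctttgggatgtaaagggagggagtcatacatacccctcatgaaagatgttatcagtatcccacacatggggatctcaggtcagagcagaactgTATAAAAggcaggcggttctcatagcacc
Lce3b (chr3:92932779-92932978, plus strand): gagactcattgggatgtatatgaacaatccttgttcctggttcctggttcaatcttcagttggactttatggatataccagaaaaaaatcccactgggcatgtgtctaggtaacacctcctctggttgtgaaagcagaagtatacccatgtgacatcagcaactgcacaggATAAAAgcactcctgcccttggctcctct
Tgm3 (chr2:130012140-130012339, plus strand): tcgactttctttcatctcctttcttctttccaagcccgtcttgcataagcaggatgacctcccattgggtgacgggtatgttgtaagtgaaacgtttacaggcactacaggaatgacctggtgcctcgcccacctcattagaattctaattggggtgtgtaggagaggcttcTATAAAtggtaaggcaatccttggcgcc
AP-1 is the Fos and Jun family of factors, long known at envelope genes. Its motif was in 15 of the 39 windows (38.5%) against 7.81% of all 32851 windows of the table. The subfamilies differed: 9 of 11 Sprr, 4 of 5 precursors and 2 of 3 other genes had it, but 0 of 11 Lce1, 0 of 4 Lce3 and 0 of 5 enzymes. In 7 Sprr2 windows it began 193 to 198 bases before the start. TATAAA near the start was found in 16 of 39 windows (41.0%, against 1.99%), among them 8 of 11 Sprr and 4 of 5 precursors. It was in 2 of 11 Lce1 and 0 of 4 Lce3 windows. The spelling ATAAAA, searched for after the windows had been read and able to overlap TATAAA, was in that range in 10 of 11 Lce1, 3 of 4 Lce3, 4 of 11 Sprr and 2 of 5 precursor windows, against 1.74% of all windows. The forkhead motif, the kind of site FoxO factors bind, was in 1 window (2.56%, against 3.65% of all), that of Hrnr, 127 bases before its start. The Klf-type motif (30.8% against 30.9%) and the Ets-type motif (25.6% against 23.8%) were about as frequent as in all windows. A match is only a spelling in the sequence, and the 300 bases are a small part of a gene's control region. Over the 200 bases before the start, aligned end to end, Sprr2 pairs had a median identity of 68.0% (46.8% to 92.0%, 28 pairs), Lce1 pairs 67.1% (51.0% to 85.5%, 55 pairs) and Lce3 pairs 59.2% (55.1% to 67.0%, 6 pairs), against 50.6% for 602 pairs from different subfamilies.

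The scaffold and precursor genes all had the higher mean in FoxO1 +/-, with a median difference of 0.27 over 6 genes. Without FoxO1 +/- replicate 3, 4 were higher and 2 lower (median 0.17), within slide row 1 also 4 and 2 (median 0.18), and without WT replicate 2 the median was 0.06. Hornerin (Hrnr), a filaggrin-like repeat protein, read 1.27, 1.40 and 0.66 in WT and 1.40, 1.99 and 2.32 in FoxO1 +/-. FoxO1 +/- replicate 1 lay level with the highest WT array and the other 2 lay above, so the groups only just did not overlap. Its difference was 0.79, or 1.73-fold (SE 0.29, unadjusted p = 0.0343, adjusted p = 0.781, limma). Within slide row 1 it was 0.29, and over the fits leaving out 1 array it ranged from 0.57 to 1.04. Ivl, the early scaffold protein, read 1.53, 1.09 and 1.08 in WT and 1.63, 1.52 and 1.68 in FoxO1 +/-. WT replicate 1 lay as high as FoxO1 +/- replicate 2, and the other WT arrays lay well below all FoxO1 +/- arrays. The Ivl difference was 0.38, or 1.30-fold (SE 0.14, unadjusted p = 0.0351, adjusted p = 0.781), its second probe gave 0.39, and within slide row 1 it was 0.40.

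Lor, the major protein of the mature envelope, read 7.84, 7.21 and 7.62 in WT and 7.65, 7.68 and 8.01 in FoxO1 +/-. The groups overlapped, and the difference of 0.22 was close to its SE of 0.19. Flg2 (filaggrin-2) differed by 0.32 (SE 0.29), which came from WT replicate 2 at 1.31 against 2.14 to 2.49 on the other 5 arrays; without that array the difference was -0.01. Kprp, a proline-rich keratinocyte protein, differed by 0.16 (SE 0.23) and repetin (Rptn) by 0.09 (SE 0.25). Within slide row 1, with its lone FoxO1 +/- array, Rptn stood at -0.47.

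The Sprr genes encode short proline-rich cross-bridges, and 10 of them were higher in FoxO1 +/- and 3 lower, with a median of 0.13. The split was 8 and 5 after quantile normalization, 7 and 6 (median 0.01) without FoxO1 +/- replicate 3, and 5 and 8 (median -0.04) within slide row 1. Sprr2g read 3.14, 2.89 and 2.92 in WT and 3.27, 3.42 and 4.12 in FoxO1 +/-. All 3 FoxO1 +/- arrays lay above all WT arrays, with replicate 3 well apart from the rest. The difference was 0.62, or 1.54-fold (SE 0.23, unadjusted p = 0.0347, adjusted p = 0.781), and it fell to 0.36 without that replicate and to 0.28 within slide row 1. The pseudogene Sprr2j-ps gave 0.81 (SE 0.33) and Sprr2f 0.55 (SE 0.24), both highest on FoxO1 +/- replicate 3. Sprr2e, Sprr2h, Sprr2k, Sprr2i, Sprr2d and Sprr1b differed by 0.09 to 0.39, and without FoxO1 +/- replicate 3 by -0.20 to 0.02.

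Sprr4 and Sprr2b ran the other way. Sprr4 read 3.88, 1.496 and 2.90 in WT and 1.33, 1.56 and 1.11 in FoxO1 +/-. WT replicates 1 and 3 were high and WT replicate 2 lay among the FoxO1 +/- arrays. This was the biggest difference of the 45 genes, -1.43 (SE 0.57, 2.69-fold lower, unadjusted p = 0.0466, adjusted p = 0.791), and it was -0.87 without WT replicate 1, -2.06 without WT replicate 2 and -1.43 within slide row 1. The same 2 WT arrays had the highest sebaceous gland marker medians, 0.40 and 0.92, and the highest hair follicle marker medians, 2.46 and -0.34. The part of these tissues in the Sprr4 values was not tested. Sprr2b read -3.10, -2.96 and -3.47 in WT and -3.68, -4.02 and -3.40 in FoxO1 +/-, with 1 FoxO1 +/- array inside the WT range. Its difference of -0.52 (SE 0.20, unadjusted p = 0.0393, adjusted p = 0.791) was -0.19 after normexp background correction. Sprr1a differed by -0.29 (SE 0.22) and its neighbour Sprr1b by 0.09 (SE 0.31).

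Copies in these families are so alike that a probe may also bind the transcripts of its neighbours, so values of single Sprr2 and Lce1 genes are uncertain. Whether this happened on these arrays was not tested. The 3 probes of Sprr2a2 gave 0.12 (SE 0.10), -0.29 (SE 0.15) and -0.66 (SE 0.14). It was the 1 gene of the 7 with several probes whose probes differed in sign. The last of these probes read -2.08, -1.895 and -2.31 in WT and -2.58, -2.92 and -2.76 in FoxO1 +/-, without overlap. Its unadjusted p was 0.00321 and its adjusted p over all probes 0.321 (limma). Sprr2a2 is counted among the higher genes through its brightest probe alone. The Lce1a2, Lce1c and Lce1i probes gave like differences within each gene, 0.25 and 0.23, 0.22 and 0.25, and 0.31 and 0.32.

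All 12 Lce1 genes, late envelope proteins of normal epidermis, had the higher mean in FoxO1 +/-, by 0.22 to 0.50 with a median of 0.30, and none had an unadjusted p under 0.05. Lce1m read 5.17, 4.15 and 5.18 in WT and 5.31, 5.27 and 5.41 in FoxO1 +/-. The FoxO1 +/- arrays lay close together above all WT arrays, and WT replicate 2 stood far below. Its difference was 0.50 (SE 0.29, unadjusted p = 0.132, adjusted p = 0.866), 0.48 within slide row 1, and 0.16 without WT replicate 2. Lce1d read 5.87, 5.40 and 5.48 in WT and 5.60, 5.85 and 6.15 in FoxO1 +/-, a difference of 0.28 (SE 0.18). Lce1a1 read 6.14, 5.49 and 5.62 against 5.80, 6.05 and 6.39, a difference of 0.33 (SE 0.22). In both, WT replicate 1 exceeded 1 or more FoxO1 +/- arrays. The 12 genes stayed higher without FoxO1 +/- replicate 3, with a median of 0.14, and split 7 to 5 within slide row 1, with a median of 0.01.

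The 4 Lce3 genes, the stress-linked Lce group, had the highest median difference of the 6 subfamilies, 0.53, with 4 of 4 higher. Lce3b read 5.05, 4.85 and 4.52 in WT and 4.81, 5.39 and 5.79 in FoxO1 +/-, a difference of 0.53, or 1.44-fold (SE 0.27, unadjusted p = 0.0976, adjusted p = 0.839). Lce3f read 1.24, 1.25 and 0.90 against 0.95, 1.81 and 2.23, a difference of 0.53 (SE 0.32). Lce3a read 2.85, 2.77 and 2.22 against 2.48, 3.22 and 3.77, a difference of 0.54 (SE 0.35). In all 3 genes FoxO1 +/- replicates 2 and 3 lay above every WT array, and replicate 1 lay inside the WT range. Lce3c, at 0.35 (SE 0.30), was high on replicate 3 alone and gave 0.03 without it. Within slide row 1 the Lce3 genes split 2 to 2 with a median of -0.06, and Lce3f and Lce3a were at -0.18 and -0.13.

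**Figure D3:**
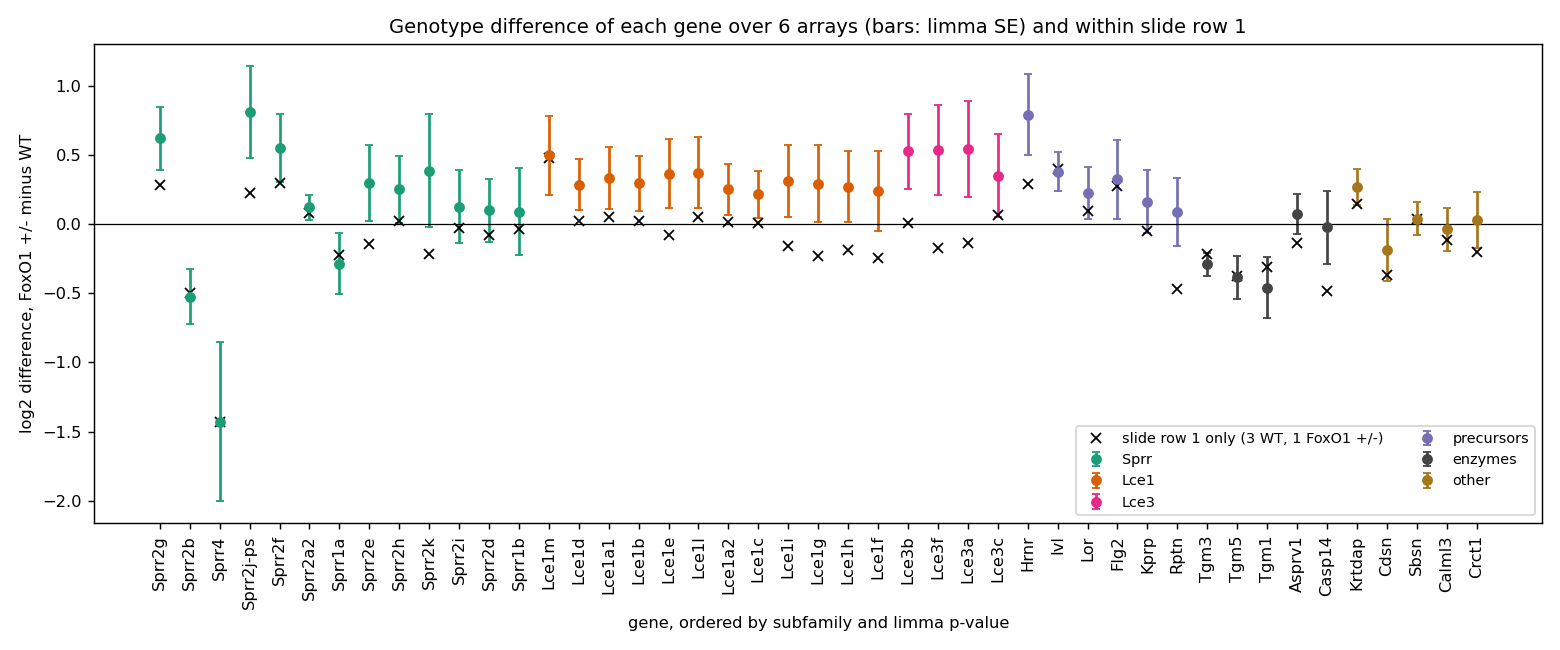
Log2 difference, FoxO1 +/- minus WT, for each of the 45 genes over 6 arrays (coloured points, bars are the limma SE) and within slide row 1 alone (crosses, 3 WT arrays and 1 FoxO1 +/- array), ordered by subfamily. Crosses fall to about 0 or below for most Lce1 and Lce3 genes but stay near the points for Sprr4 (-1.43 and -1.43), Ivl (0.38 and 0.40), Lce1m (0.50 and 0.48) and Tgm5 (-0.38 and -0.37).

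The transglutaminases, which cross-link the precursors into the envelope, had lower means in FoxO1 +/-, opposite in sign to their precursors. Tgm3 read 0.15, 0.13 and 0.27 in WT and -0.03, -0.07 and -0.22 in FoxO1 +/-. All 3 FoxO1 +/- arrays lay below all WT arrays, and Tgm3 and Sprr4 were the 2 of the 45 genes that were lowest on FoxO1 +/- replicate 3. Its difference was -0.29 (SE 0.08, 1.22-fold lower, unadjusted p = 0.0134, adjusted p = 0.642), it was -0.33 to -0.23 over the fits leaving out 1 array and -0.21 within slide row 1, and its second probe gave -0.20 (SE 0.31). Tgm5 read 2.30, 2.08 and 2.37 in WT and 1.88, 1.60 and 2.13 in FoxO1 +/-, with FoxO1 +/- replicate 3 just inside the WT range. Its difference was -0.38 (SE 0.15, unadjusted p = 0.0474, adjusted p = 0.791). Tgm1, the membrane-bound enzyme that starts cross-linking, read 1.58, 2.29 and 1.87 in WT and 1.60, 1.14 and 1.63 in FoxO1 +/-, a difference of -0.46 (SE 0.22, unadjusted p = 0.0796). Here WT replicate 1 lay among the FoxO1 +/- arrays. Within slide row 1 the 3 genes stood at -0.21, -0.37 and -0.31.

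The proteases of filaggrin processing had smaller differences over the 6 arrays. Asprv1 differed by 0.07 (SE 0.15) and Casp14 by -0.02 (SE 0.26), and within slide row 1 they stood at -0.13 and -0.48. Over the 5 enzymes the median was -0.29, with 1 higher and 4 lower, 0 and 5 without FoxO1 +/- replicate 3, and 0 and 5 within slide row 1.

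**Figure D4:**
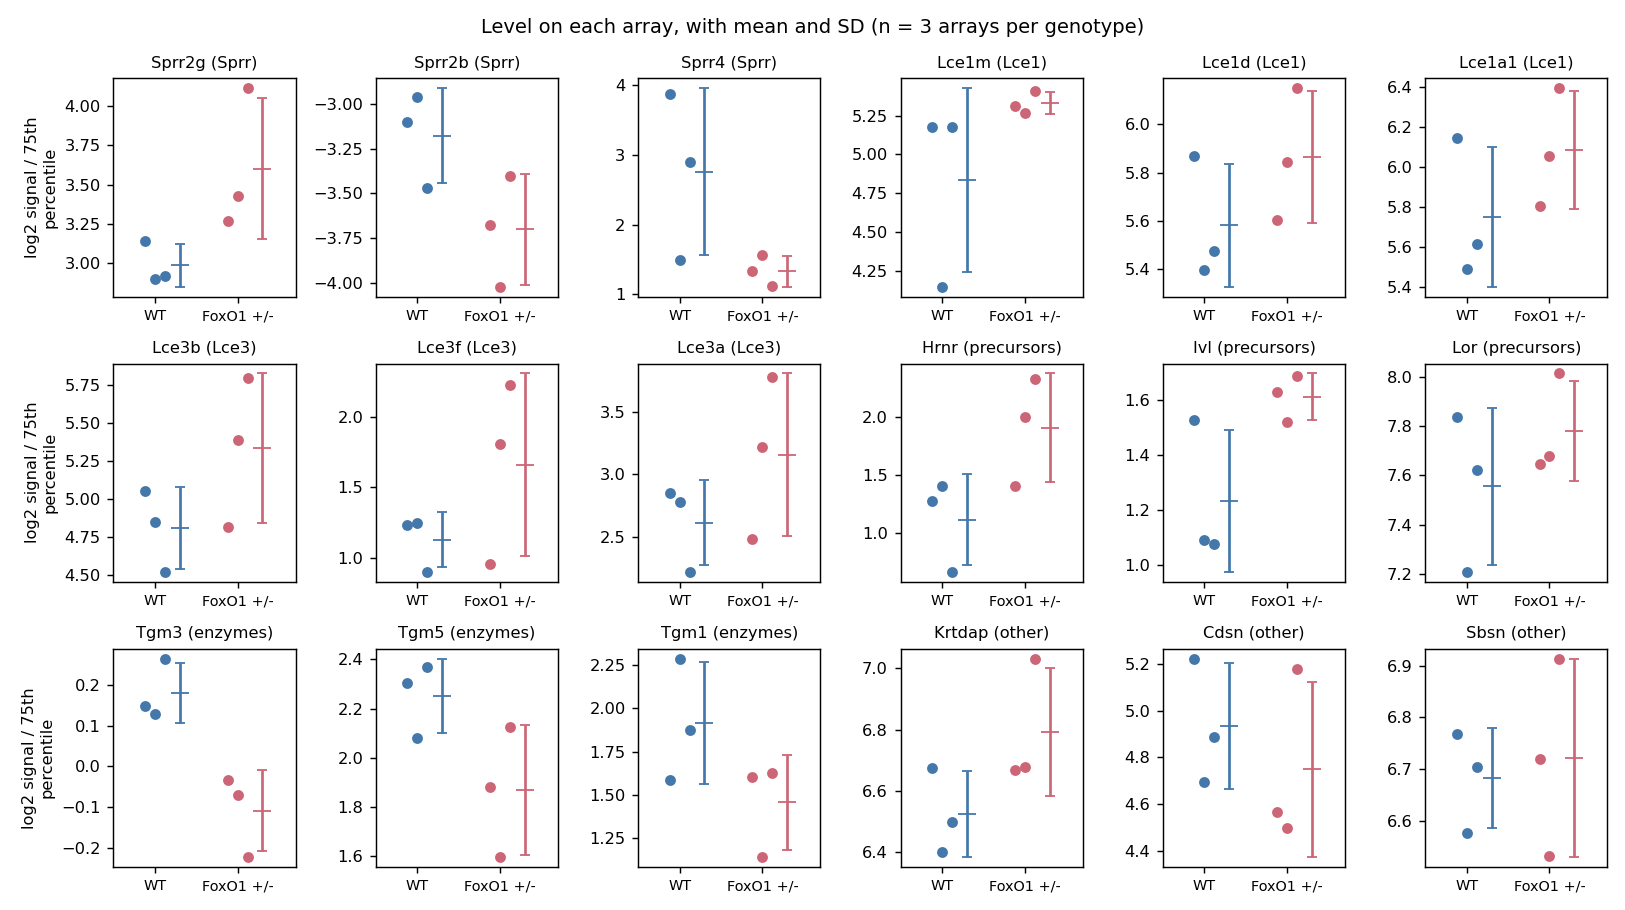
Log2 level relative to the array's 75th percentile for 18 genes, 3 WT arrays in blue and 3 FoxO1 +/- arrays in red in replicate order, with the mean and SD of each genotype beside the points (n = 3); each panel has its own axis range. Genotypes do not overlap for Sprr2g, Lce1m, Hrnr and Tgm3, while the Lce3 genes have FoxO1 +/- replicate 1 inside the WT range.

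The other late differentiation genes were split. Krtdap, a secreted protein of differentiating keratinocytes, read 6.68, 6.40 and 6.50 in WT and 6.67, 6.68 and 7.03 in FoxO1 +/-, a difference of 0.27 (SE 0.13, unadjusted p = 0.0889). Cdsn, the adhesive protein of corneodesmosomes, read 5.22, 4.69 and 4.89 against 4.57, 4.50 and 5.18, a difference of -0.19 (SE 0.22). Sbsn read 6.77, 6.58 and 6.70 against 6.72, 6.53 and 6.91, a difference of 0.04 (SE 0.12). The ranges of the genotypes overlapped in all 3. Calml3 and Crct1 differed by -0.04 (SE 0.16) and 0.03 (SE 0.20). The median of these 5 genes was 0.03 and went below 0 under normexp, quantile normalization and median scaling, so it has no settled direction.

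**Figure D5:**
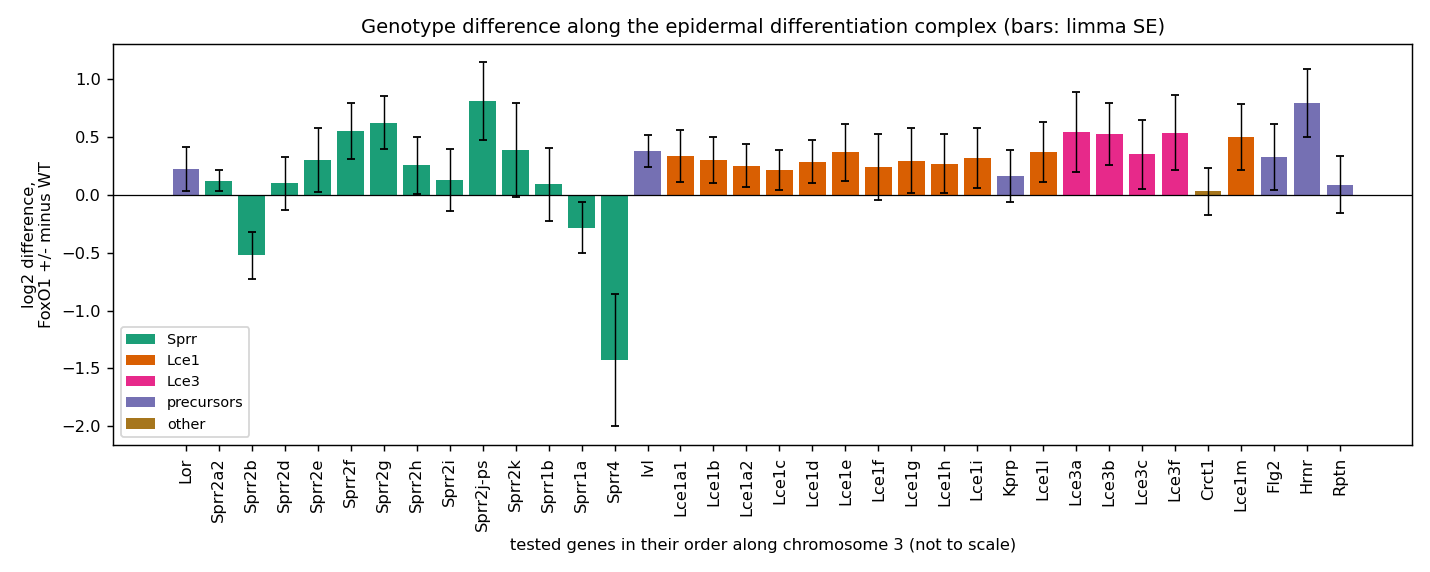
Log2 difference, FoxO1 +/- minus WT, of the 36 tested envelope genes on chromosome 3 in their order along the chromosome (bars start at 0, whiskers are the limma SE; spacing not to scale). Bars point up for 33 genes; the 3 that point down are Sprr2b, Sprr1a and Sprr4, and Sprr1a and Sprr4 are next to each other.

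Position along chromosome 3 was then compared. Of the tested genes, 36 lie in the complex, and 33 of these had the higher mean in FoxO1 +/-, with a median of 0.30. The other 9, on other chromosomes, split 3 higher and 6 lower with a median of -0.04. Of all 814 genes tested on chromosome 3, 56.3% were higher with a median of 0.02. Foxo1 itself is also on chromosome 3. On this scale every tested gene from Ivl through the Lce genes to Rptn had a difference above 0. Of the 3 below 0, Sprr1a and Sprr4 follow each other among the tested genes, and Sprr2b lies between Sprr2a2 (0.12) and Sprr2d (0.10). The Sprr2a2 value is that of its brightest probe, and its other probes gave -0.29 and -0.66. Within slide row 1, 5 of 12 Lce1 genes and 2 of 4 Lce3 genes were below 0.

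Other genes of cornification, a list of 48 partners such as plakins, desmosomal proteins, proteases and lipid enzymes, did not share the upward direction of the means: 21 were higher and 27 lower, with a median of -0.08. They did share the high FoxO1 +/- replicate 3, which was the highest array for 22 of the 48 (45.8%, against 20.9% of all genes). WT replicate 1 was the highest for 21, and the list medians on these 2 arrays were 0.21 and 0.25. None of the 48 passed the adjusted test, and 4 had an unadjusted p under 0.05, a share near the 6.29% of all genes. Pkp3, a desmosomal plaque protein, read 3.36, 3.23 and 3.39 in WT and 2.91, 2.54 and 2.95 in FoxO1 +/-, a difference of -0.52 (SE 0.13, adjusted p = 0.534). Cst6, the cystatin that restrains the proteases activating Tgm3, read 7.93, 6.78 and 7.60 against 6.61, 6.49 and 6.59, a difference of -0.87 (SE 0.28, adjusted p = 0.701). In both genes all FoxO1 +/- arrays lay below all WT arrays. The other 2, named after their values were seen, were the tight junction gene Cldn1 at -0.59 (SE 0.20) and the epidermal cytokine gene Il1f6 at 1.04 (SE 0.38).

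Among 39 regulators of keratinocyte differentiation, 15 were higher and 24 lower, with a median of -0.07, and none passed the adjusted test. Notch1, a receptor that drives cells out of the basal layer, read -0.67, 0.02 and -0.37 in WT and 0.57, 0.47 and 0.91 in FoxO1 +/-, without overlap, a difference of 0.99 (SE 0.20, unadjusted p = 0.00261, adjusted p = 0.415). Besides Notch1, 5 regulators had an unadjusted p under 0.05, all lower, so that 1 higher and 5 lower stood against 3.48% and 2.81% of all genes. They were Foxo1, whose allele defines the groups and whose lower level is no separate result, and 4 genes named after their values were seen. These were Vdr, the vitamin D receptor, at -0.82 (SE 0.28), Grhl2 at -0.60 (SE 0.21), Tfap2a at -0.64 (SE 0.24) and Zfp750 at -0.50 (SE 0.19). The genotypes overlapped for Grhl2, Tfap2a and Zfp750 but not for Vdr. In WT all 4 were lowest on replicate 2. So were the marker medians of sebaceous gland (-0.04), hair follicle (-0.79), adipocytes (-0.93), skeletal muscle (-0.73) and endothelium (-0.22). Basal (-0.07) and suprabasal (-0.11) keratinocyte markers were also lowest there in WT. All 4 genes were highest on WT replicate 1, whereas sebaceous gland markers were highest on WT replicate 3 (0.92). The part of these cell types in the values of the 4 genes was not tested. The AP-1 genes were read outside the naming rule. Their differences ran from -0.09 (SE 0.10) for Jund to 0.21 (SE 0.22) for Fosl1, with Fos at 0.05 (SE 0.35) and Junb at 0.08 (SE 0.31). Each of these SEs exceeded its difference in size. The part of AP-1 in the Sprr values was not tested.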

How the data were processed

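RNA of mouse skin wounds was measured on 1-colour Agilent arrays, 3 per genotype. Linear spot intensity values were read from the deposited scanner output. The authors' software was Agilent Feature Extraction, version 10.7.1.1 per the file headers and 9.1 per the submitters' processing notes, and its processed signal was used. The deposited value table matched the processed signal within 1% at all 59305 non-control spots, with column medians of 122, 127 and 137 in WT and 118, 118 and 101 in FoxO1 +/-, so it is linear and not centred.

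Here log2 of the processed signal was taken without spots flagged as outliers, and every array was shifted by its own 75th percentile (non-control probes). A probe was kept if well above background on every array of 1 genotype or both. Symbols came from RefSeq accessions through a table of build GRCm38.p6, which differs from the array's annotation, so the table gave names and gene order alone. Each gene was represented by its brightest kept probe. Genotypes were compared with limma 3.58.1 (R 4.3.3, lmFit and eBayes, two-sided, Benjamini-Hochberg over 16408 genes), checked on simulated data. The number of arrays limits the precision. Promoter alignments used Biopython 1.88.

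The envelope genes and the marker, partner and regulator lists were chosen with earlier results of these data known. Values on each array are given for the 3 smallest p-values of each subfamily, Lor, Ivl, and genes without overlap at 1.5-fold or more; for each other list, the 2 smallest p-values were named where used, with 4 keratins. The alternatives were normexp (offset 50), quantile and median scaling, 2 other dim-probe filters, the mean over probes, the value table, the replicate number or slide row as a block, slide row 1 alone, and leaving out each array. The files lack the mean signal, so normexp used the median signal.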

Additional observations from a re-analysis of the deposited data

How the results depend on the processing

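Of 144 alternative values for counts and medians, 119 stayed within the spread between replicates or 1.5 times the count, and 25 moved. Direction was not part of this rule, and some medians that stayed changed sign. Within slide row 1 the Sprr median was -0.0371, against 0.126 as reported. That of the other late differentiation genes was -0.118, against 0.0297. The count of all genes past an adjusted p of 0.05, 1 as reported, was 0 with normexp, 2 with quantile normalization, 5 with median scaling, 3 with no filter on dim probes, 0 with probes well above background on all 6 arrays, 7 with slide row as a block and 4 within slide row 1, and 0 to 30 when 1 array was left out (30 without WT replicate 2). The count of envelope genes at an unadjusted p under 0.05 was 7 as reported, when 6.29% of all genes were under it. It was 1 with slide row as a block (2.93% of all genes) and 1 within slide row 1 (3.1%), where the lone FoxO1 +/- array is assumed to vary like the WT arrays. When 1 array was left out it was 2 to 9: 4 on leaving out WT replicate 2 (9.14%), 3 for WT replicate 3 (4.67%), 2 for FoxO1 +/- replicate 2 (4.15%) and 4 for FoxO1 +/- replicate 3 (6.13%). With slide row as a block, and within row 1, the median over the 45 genes was -0.0519 and that of Lce3 was -0.0624, against 0.253 and 0.53. With the replicate number as a block, 0 genes passed the adjusted threshold. In that fit 3 envelope genes (Ivl, Sprr2f and Tgm5) had an unadjusted p under 0.05, against 4.85% of all genes. Deviations of same-numbered arrays from their genotype means had correlations of -0.0683, -0.139 and -0.301. Deviations from a mean of 3 arrays offset one another, so these values cannot decide whether the numbers pair the arrays.

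Of 288 alternative values for the 18 named genes, 8 changed sign. Not every setting could alter these differences. The replicate block and the 2 other dim-probe filters left them as they were. Slide row as a block gave the same differences as slide row 1 alone. Sbsn was -0.00453 with normexp, -0.115 with quantile normalization and -0.0573 to 0.134 when 1 array was left out. Lce3f and Lce3a were -0.175 and -0.133 with slide row as a block and within row 1. The cause of these changes was not tested. FoxO1 +/- replicate 3, with the fewest spots above background, limits every mean in which it stands apart.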
